A study of Danio rerio with 4 samples.

Results

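Potassium channel genes were examined in hand-dissected hearts of zebrafish aged 72 hours post fertilization (hpf). Between ccm2 mutant and wild-type (WT) hearts, 12 of the 27 that could be tested differed (44.4%), beside 17.1% of all tested genes. Members were all genes whose platform symbol starts with kcn, which gave 68 of the 14435 named genes on the array. Of these, 27 had signal above the 40th percentile of the array on at least 2 of the 4 arrays and were tested, and 41 were too dim. For comparison, 11526 of all named genes were tested. Among the 14 members above the 40th percentile on all 4 arrays, 7 differed, beside 15.2% of all genes with that property. The WT group and the group carrying the ccm2 m201 mutation had 2 samples each, every sample a pool of hearts hybridised to 1 single-colour Agilent array. Ccm2 holds together the cerebral cavernous malformation complex, known from the endothelium and endocardium. The labels name no other allele and no agent as a treatment, and they do not give the strain, the number of hearts in a pool or whether WT embryos were siblings of the mutants. The mutant samples' description field adds Bmp2b overexpression, of which their titles, sources and genotypes say nothing, so it stays unsettled whether mutants also carried it.

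Potassium channels let potassium leave the cell and so end the action potential and set the resting potential of heart muscle. Voltage-gated channels are built from alpha subunits, which line the pore, together with auxiliary subunits that set their gating and surface level. Inward rectifiers and 2-pore-domain leak channels act near the resting potential, and calcium-activated channels couple calcium signals to potassium flow. Many family members are known mainly from neurons, kidney or blood cells, so a heart dissection can also carry their transcripts from other cells. In samples of whole tissue, fewer cells of a type and less RNA per cell cannot be told apart.

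Values below are log2 signals scaled to the 75th percentile of each array, given for WT 1, WT 2, mutant 1 and mutant 2. A difference is the mean of the 2 mutant arrays minus the mean of the 2 WT arrays with its SE from limma, and a gene was called at an adjusted p below 0.05 over all tested probes. A signal was taken as well above background from 3.20, 2.78, 2.86 and 2.60 upward on the 4 arrays, and where a whole group lay below this the fold is a lower bound. Such a bound takes the signals of the brighter group as read, also where not all of them were well above background. Signals of different probes cannot be read as relative transcript amounts. No label states that each pool had its own clutch, and a p-value here covers the spread between arrays, which may be technical. The heart label was checked on cardiomyocyte markers, of which 20 were listed, 15 had a probe on the array and 14 passed the signal filter. These 14 tested markers were all well above background in both groups. Among them myl7 stood at 14.21 and 14.03 in WT and 14.38 and 13.87 in mutants. Of the 14, 1 was called, the Z-disc gene ldb3a (lower by a log2 difference of -1.25 ± 0.18, adjusted p = 0.0279). That is 7.14%, beside 17.1% of all tested genes. The estimates were above 0 for 5 markers and below 0 for 9, with a median of -0.15.

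In mutants 4 potassium channel genes were higher and 8 lower, and 15 were not called. That is 44.4% of the tested members, beside 17.1% of all tested genes in either direction, with 8.10% called higher and 9.03% lower in that background. The median log2 difference of the members was -0.57, against -0.04 over all tested genes, and the median absolute difference was 1.46 against 0.47. These counts describe the members that passed the filter. Among them 3 passed through the WT arrays alone (kcnab1a, kcnn4 and kcnq5a) and 2 through the mutant arrays alone (kcna6a and kcnn1a), so that these 5 had to differ. Among the 14 members above the filter on all 4 arrays, 3 were higher and 4 lower, beside 15.2% called of the 10321 genes with that property (7.45% higher and 7.75% lower). The arrays of the groups did not overlap in 20 of the 27 members (74.1%), beside 67.8% of all tested genes. Of these members 9 were higher and 11 lower in mutants, beside 32.6% and 35.2% of all tested genes. In the 14 members above the filter on every array, 12 did not overlap (6 higher and 6 lower), beside 33.1% higher and 35.0% lower among genes with that property.

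**Figure D1:**
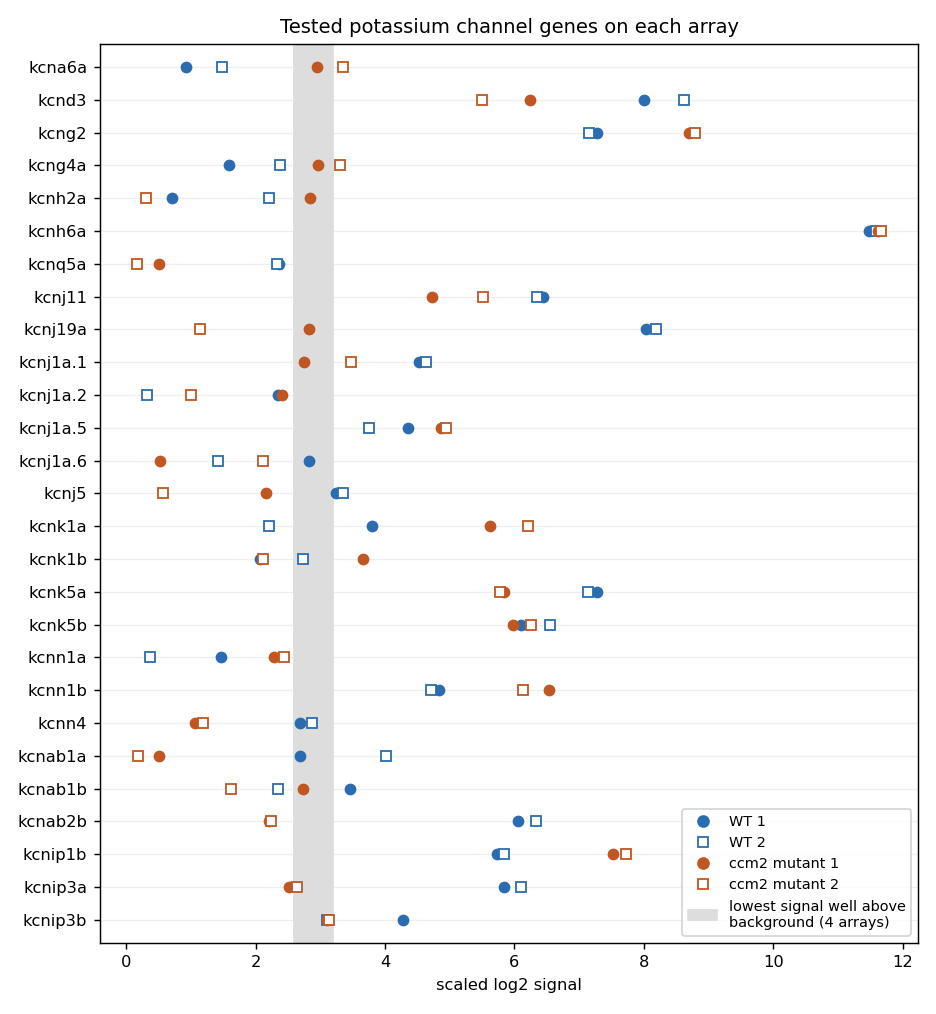
Scaled log2 signal (horizontal axis) of the 27 tested potassium channel genes, ordered by family, with 1 point for each of the 2 WT and 2 ccm2 mutant arrays; the grey band spans the lowest signals well above background on the 4 arrays. kcnj19a lay at 8.03 and 8.18 in WT and at 2.83 and 1.13 in mutants, while the 4 points of kcnh6a lay between 11.49 and 11.67.

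Leaving out 1 array ended most calls. Such a fit sets 1 array against 2 with 1 residual degree of freedom, and the lone array is assumed to vary like the other group. Without WT replicate 1 the members called were 1 higher (kcnk1a) and 3 lower (kcnab1a, kcnab2b and kcnip3a), without WT replicate 2 they were 0 higher and 2 lower (kcnab2b and kcnip3a), and without either mutant replicate limma called 0 members and 0 of all 11526 genes. In those last fits 3676 genes (without mutant replicate 1) and 3781 genes (without mutant replicate 2) had an unadjusted p under 0.05, against 4110 with all arrays. The 12 called members kept their direction in each of these 4 fits. This was fixed in advance, since in all 12 the arrays of the groups did not overlap. The estimates of called members moved little in some, such as kcnab2b (-4.11 to -3.83) and kcng2 (1.46 to 1.59), and more in others, such as kcnab1a (-3.67 to -2.34). Normexp background correction of the raw median signal was run as an alternative to the processed signal. It added a constant of 50 to each corrected signal, where the raw medians of the arrays were 34.5 to 35. Such a constant pulls log2 differences of dim probes toward 0, so smaller sizes were built in for them. With normexp all named differences other than kcnh2a were smaller in size, 3 calls ended (kcna6a, kcnn4 and kcnq5a) and 2 were added (kcnj11 and kcnk1a). By normexp kcnj19a fell by 2.54, kcnd3 by 1.54, kcnab2b by 1.26, kcnip3a by 0.94 and kcnab1a by 0.49, while kcnip1b rose by 1.22 and kcnn1b by 0.62 on the log2 scale, each still called. These values are more than 1.5 times smaller than those given below.

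**Figure D2:**
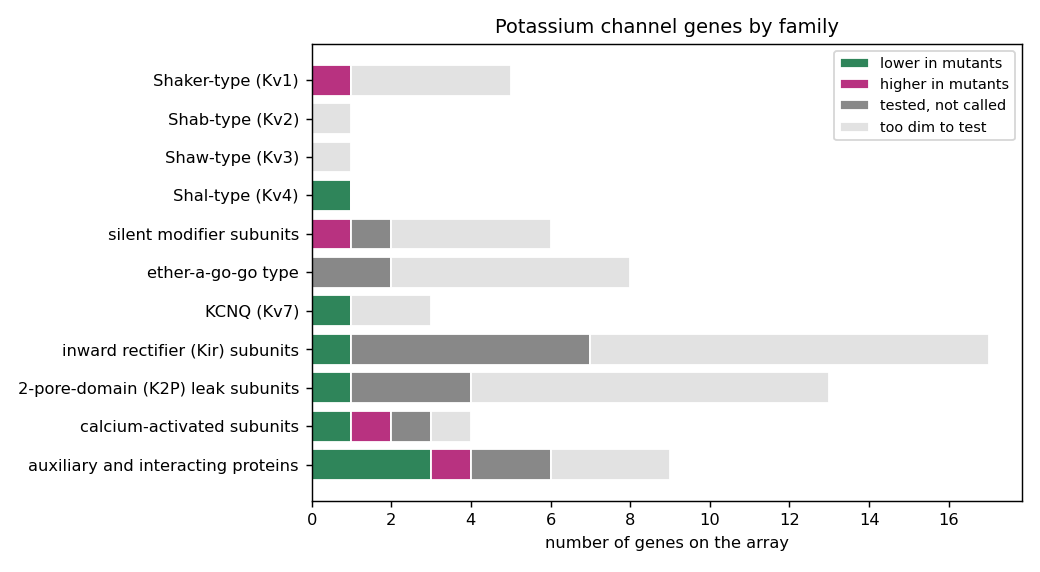
Number of potassium channel genes on the array in each family (horizontal bars, in genes), split into those lower in mutants, higher in mutants, tested but not called, and too dim to test. The inward rectifiers had 17 genes on the array, of which 7 were tested and 1 was lower. The auxiliary and interacting proteins had 9, of which 6 were tested, 3 lower and 1 higher. Among all tested genes 9.03% were called lower and 8.10% higher.

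Among the pore-forming voltage-gated subunits, kcnd3 was lower in mutants. It encodes a Kv4 subunit, which in mammalian heart carries the transient outward current of early repolarization. Its log2 signal was 8.01 and 8.61 in WT and 6.25 and 5.49 in mutants. Both mutant arrays lay below both WT arrays by at least 1.76, and the difference was -2.44 ± 0.38 (SE, adjusted p = 0.0307), a 5.43-fold lower signal in mutants. Over all alternatives the adjusted p of kcnd3 ran from 0.00843 to 0.109. kcnd3 was the only Kv4 alpha subunit gene on the array under this naming rule.

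kcnh6a, which encodes the ether-a-go-go related channel that repolarizes the embryonic zebrafish heart, was not called. Its signal was 11.49 and 11.59 in WT and 11.61 and 11.67 in mutants, a difference of 0.10 ± 0.17 (SE, adjusted p = 0.721). The 95% interval of this difference ran from -0.37 to 0.58. The other tested gene of this family, kcnh2a, was not well above background in either group, with 0.71 and 2.20 in WT and 2.84 and 0.31 in mutants. The feature named kcnh2 carries an accession that RefSeq now assigns to kcnh2a, and it was too dim to test on all 4 arrays. The remaining ether-a-go-go genes, kcnh1a, kcnh4b, kcnh5a, kcnh6b and kcnh8, were too dim as well.

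Of the Shaker-type subunits (Kv1) only kcna6a was tested, and it was higher in mutants. It passed the filter through the mutant arrays alone and so had to differ. Its signal was 0.93 and 1.48 in WT, not well above background, and 2.95 and 3.36 in mutants, at least 1.12-fold higher (difference 1.95 ± 0.29, adjusted p = 0.0290). With normexp the difference was 0.0092 (adjusted p = 0.959), and over all alternatives the adjusted p ran from 0.0280 to 0.959. kcna1b, kcna2b, kcna4 and kcna7 were too dim.

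The silent modifier gene kcng2 was higher in mutants. Silent subunits do not form a channel by themselves but change the gating of Kv2 partners. kcng2 lay at 7.28 and 7.15 in WT and at 8.70 and 8.78 in mutants, and the difference of 1.52 ± 0.17 (SE, adjusted p = 0.0175) was a 2.88-fold higher signal. The arrays of each group differed by at most 0.12, far less than the gap of 1.42 between the groups. kcng4a gave 1.58 and 2.37 in WT and 2.96 and 3.31 in mutants and was not called (difference 1.16 ± 0.35, adjusted p = 0.107). The other silent subunit genes, kcnf1a, kcng4b, kcns3a and kcns3b, were too dim, as were the Shab-type gene kcnb2a and the Shaw-type gene kcnc2.

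Among the Kv7 genes, kcnq5a was lower. It passed the filter through the WT arrays alone and so had to differ. In mammals its product contributes to a slow potassium current of neurons and smooth muscle. The gene was dim throughout, at 2.36 and 2.33 in WT and at 0.50 and 0.17 in mutants, and no array was well above background, so no fold is given (difference -2.02 ± 0.20, adjusted p = 0.0145). With normexp the difference was -0.26 (adjusted p = 0.168), and over all alternatives the adjusted p ran from 0.0130 to 0.168. kcnq1.1, whose mammalian counterpart carries the slow delayed rectifier current, and kcnq3 were too dim to test.

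**Figure D3:**
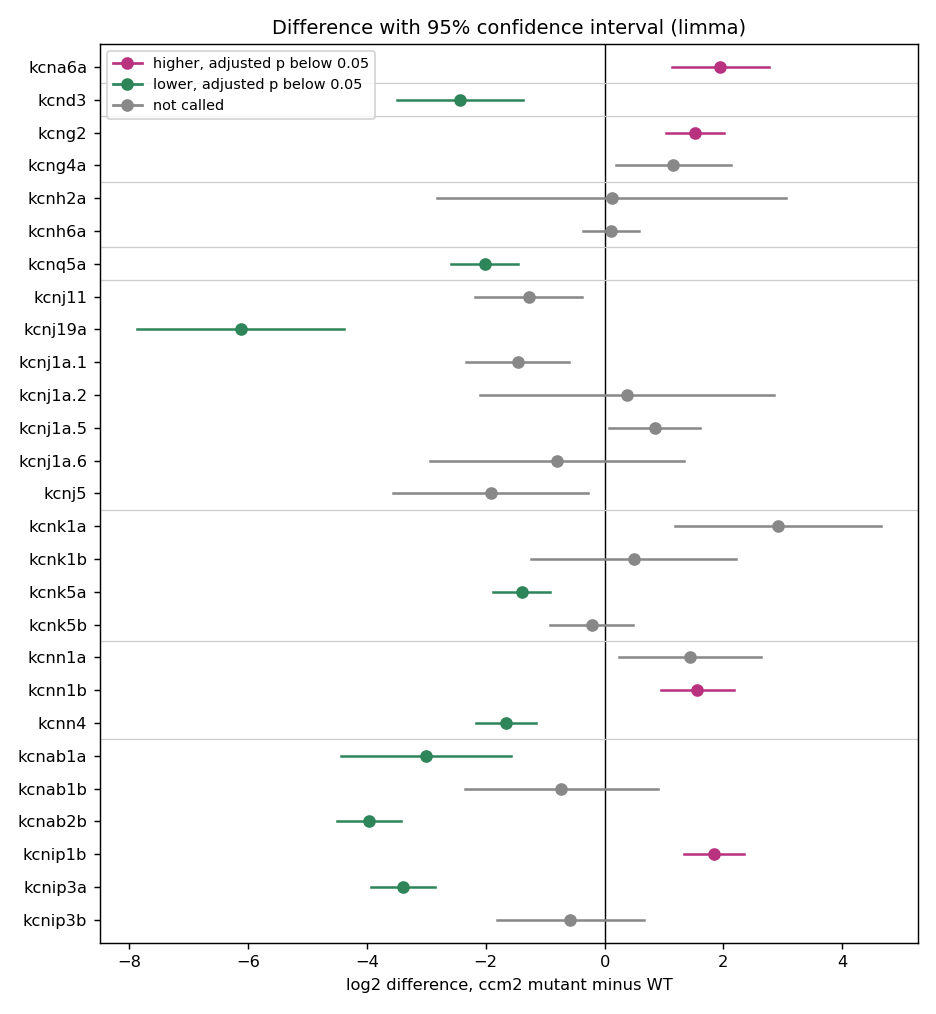
Log2 difference, ccm2 mutant minus WT (horizontal axis), of the 27 tested potassium channel genes with the 95% confidence interval from limma; lines separate families and colours mark calls. Differences ran from -6.13 (kcnj19a) to 2.92 (kcnk1a), and the interval of kcnk1a lay above 0 although its adjusted p was 0.0553.

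The auxiliary and interacting proteins moved in both directions, with 3 of 6 tested genes lower, 1 higher and 2 not called. Beside these counts stand 9.03% lower and 8.10% higher among all tested genes. The 3 lower genes include kcnab1a, which passed the filter through the WT arrays alone. The KChIP proteins are calcium-binding partners of Kv4 channels, and their genes kcnip1b and kcnip3a were called in opposite directions. kcnip1b rose from 5.74 and 5.84 in WT to 7.53 and 7.72 in mutants (difference 1.84 ± 0.18, adjusted p = 0.0141), a 3.58-fold higher signal. kcnip3a, whose mammalian counterpart also acts as a transcriptional repressor, fell from 5.84 and 6.09 to 2.51 and 2.64, a difference of -3.39 ± 0.19 (adjusted p = 0.00758) that was 10.5-fold in size, and mutant 2 alone of the mutant arrays was well above background. Its second probe read 4.71 and 5.16 in WT and 0.72 and 0.67 in mutants, at least 4.62-fold lower. That probe passed the filter through the WT arrays alone and so had to differ. For both genes the spread within a group was at most 0.25, and the groups were separated by 1.69 and 3.21. kcnip3b, at 4.27 and 3.11 in WT and 3.11 and 3.13 in mutants, was not called (difference -0.57 ± 0.45, adjusted p = 0.440). kcnip1a and kcnip2, the latter the main cardiac KChIP gene of mammals, were too dim.

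The genes for Kv beta subunits, which bind Kv1 channels on their inner face, were lower or not called. kcnab2b had 6.05 and 6.33 in WT and 2.20 and 2.24 in mutants, where no array was well above background. This was at least 11.0-fold lower (difference -3.97 ± 0.19, adjusted p = 0.00729). kcnab1a had 2.68 and 4.01 in WT and 0.51 and 0.18 in mutants and was at least 1.54-fold lower (95% interval of the difference -4.43 to -1.58, adjusted p = 0.0360), and only WT 2 was well above background. It passed the filter through the WT arrays alone and so had to differ. kcnab1b overlapped between the groups, at 3.46 and 2.34 in WT and 2.73 and 1.61 in mutants (adjusted p = 0.457). The gene for a beta subunit of large-conductance channels, kcnmb2a, was too dim.

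Of 7 tested inward rectifier genes 1 was called, as lower, and 6 were not called. This share of 14.3% lay near the 17.1% of all tested genes called in either direction. kcnj19a had the largest difference of any tested member. It lay at 8.03 and 8.18 in WT and at 2.83 and 1.13 in mutants, neither of which was well above background. The signal was at least 41.6-fold lower in mutants (difference -6.13 ± 0.63, adjusted p = 0.0149). kcnj11 encodes the pore of the ATP-sensitive channel, which opens when cellular ATP falls. It gave 6.44 and 6.35 in WT and 4.73 and 5.51 in mutants. These groups did not overlap, but the difference of -1.27 ± 0.32 was not called (adjusted p = 0.0771), and its 95% interval ran from -2.18 to -0.37. It passed with normexp (-0.71, adjusted p = 0.0311) and with an intensity trend in the prior variance (adjusted p = 0.0470), and over all alternatives the adjusted p ran from 0.0311 to 0.243. kcnj5, whose mammalian product forms part of the atrial channel opened by acetylcholine, gave 3.23 and 3.34 in WT and 2.17 and 0.57 in mutants. Its difference of -1.92 ± 0.59 was not called (adjusted p = 0.112).

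The kcnj1a genes are related to the mammalian gene of a kidney potassium channel, and lie as neighbours of one another in RefSeq's gene order. In that order kcnj1a.3, kcnj1a.2, kcnj1a.1 and kcnj5 follow each other, and kcnj1a.6 stands beside kcnj1a.5, with no other protein-coding gene between them. Their estimates differed in sign and none was called. kcnj1a.1 gave 4.52 and 4.63 in WT and 2.74 and 3.48 in mutants (difference -1.46 ± 0.31, adjusted p = 0.0546), whereas kcnj1a.5 gave 4.36 and 3.75 in WT and 4.86 and 4.94 in mutants (difference 0.85 ± 0.28, adjusted p = 0.124). kcnj1a.2 and kcnj1a.6 overlapped between the groups and were not well above background in either. Whether these probes also bind the neighbouring copies was not tested. The other inward rectifier genes were too dim: kcnj1a.3, kcnj1b, kcnj2b, kcnj8, kcnj11l, kcnj12b, kcnj13, kcnj16a, kcnj20 and kcnj21. kcnj2b and kcnj12b belong to the family behind the resting inward rectifier current of heart muscle. kcnj8 was read as the mean of 5 spots of 1 probe, between 0.37 and 1.00.

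Among the 2-pore-domain genes, kcnk5a was lower. It encodes a subunit of a leak channel. Its signal was 7.27 and 7.13 in WT and 5.83 and 5.77 in mutants, a difference of -1.40 ± 0.17 (SE, adjusted p = 0.0204) and a 2.63-fold lower signal. Its paralogue kcnk5b, which controls fin growth in adult zebrafish, gave 6.10 and 6.55 in WT and 5.98 and 6.25 in mutants and was not called. Its difference was -0.21 ± 0.25 (adjusted p = 0.610) with a 95% interval from -0.91 to 0.48, against -1.88 to -0.91 for kcnk5a, and the difference between the paralogues was not tested.

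kcnk1a, which encodes a weakly inward-rectifying leak channel, had the largest positive estimate. It lay at 3.79 and 2.20 in WT, where WT 2 was not well above background, and at 5.62 and 6.21 in mutants. Both mutant arrays were above both WT arrays, but the WT arrays were 1.59 apart and the difference of 2.92 ± 0.62 was not called (adjusted p = 0.0553). It passed with median scaling (3.07, adjusted p = 0.0433), without scaling (3.14, adjusted p = 0.0442), with quantile normalization (3.04, adjusted p = 0.0477), with normexp (0.84, adjusted p = 0.0258), with an intensity trend (adjusted p = 0.0239) and without WT replicate 1 (3.72, adjusted p = 0.0444). Over all alternatives the adjusted p ran from 0.0239 to 0.162. kcnk1b overlapped between the groups (adjusted p = 0.638). The other leak channel genes were too dim: kcnk2a, kcnk2b, kcnk3a, kcnk7, kcnk10a, kcnk10b, kcnk12, kcnk13a and kcnk13b.

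The calcium-activated genes moved both ways. kcnn1b, a small-conductance channel gene, was higher in mutants at 6.53 and 6.13 than in WT at 4.83 and 4.71 (difference 1.56 ± 0.22, adjusted p = 0.0260), a 2.95-fold higher signal. kcnn1a was dim, at 1.47 and 0.37 in WT and 2.28 and 2.44 in mutants, and was not called (adjusted p = 0.105). kcnn4 encodes the intermediate-conductance channel, which in mammals acts in red blood cells and lymphocytes. It fell from 2.68 and 2.87 in WT, of which only WT 2 was well above background, to 1.06 and 1.18 in mutants, at least 1.04-fold lower (difference -1.66 ± 0.18, adjusted p = 0.0168). kcnn4 passed the filter through the WT arrays alone and so had to differ. With normexp the difference was -0.26 (adjusted p = 0.150), and over all alternatives the adjusted p ran from 0.0165 to 0.150. Red blood cell markers had 12 of 17 lower and 1 higher, and their summed signal was 92999 to 105769 in WT and 12578 to 16126 in mutants. The lower markers gata1a and tfr1a passed the filter through the WT arrays alone and so had to differ. Over all tested genes 9.03% were called lower and 8.10% higher. Of 15 leukocyte markers, 13 rose and 0 fell, with sums of 2556 to 3718 in WT and 13771 to 14584 in mutants. The part of either cell type in the kcnn4 result was not tested. kcnn2 was too dim. Other genes of main cardiac potassium currents were not on the array under these symbols: kcna5, kcnd2, kcne1, kcne4, kcnh2b, kcnj2a, kcnj3a, kcnj3b, kcnj12a, kcnk3b, kcnq1 and kcnq1.2.

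**Figure D4:**
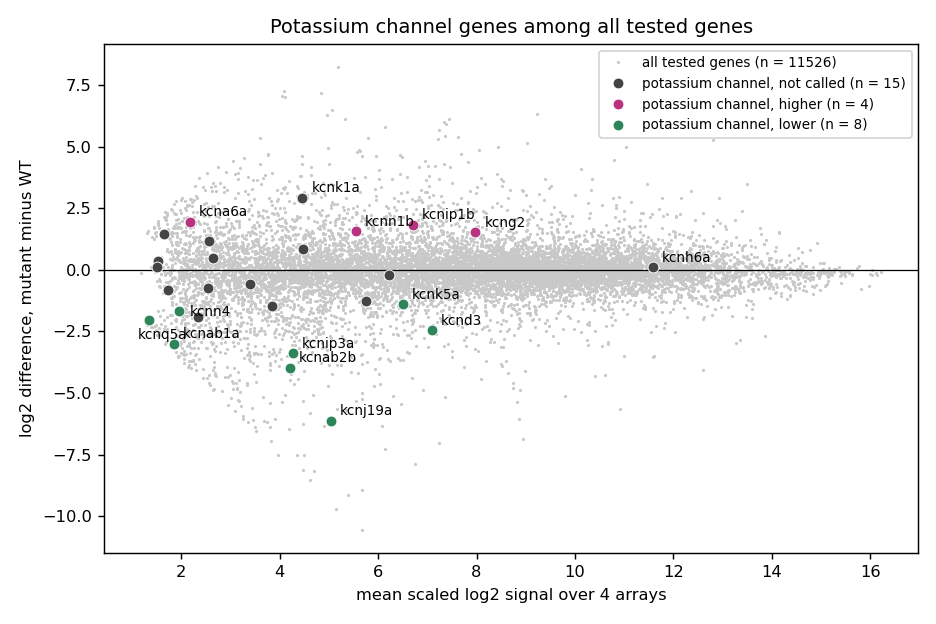
Log2 difference, mutant minus WT (vertical axis), against the mean scaled log2 signal over the 4 arrays (horizontal axis) for all 11526 tested genes (grey) and the 27 tested potassium channel genes (coloured by call). kcnh6a lay near 0, and kcnj19a at -6.13.

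Markers of nerve and eye also differed between the groups. Their counts stand beside 9.03% of all tested genes called lower and 8.10% called higher. Of 18 tested neuron markers, 9 fell, 3 rose and 6 were not called (median -1.89). Their summed signal was 3994 to 5139 in WT and 7096 to 7675 in mutants, so the sum ran against the median, and the markers that rose were sncga, elavl4 and tubb5. The neuron marker elavl3 was 2.82 and 3.62 in WT, well above background on WT 2 only, and 0.91 and 1.19 in mutants. Of the neuron markers that fell, elavl3 and atp1a3b passed the filter through the WT arrays alone and so had to differ. Of 13 retina and lens markers, 8 fell, 0 rose and 5 were not called (median -6.38), and 8 were not well above background in mutants. Their sum was 2938 and 15004 in WT 1 and WT 2 and 207 to 214 in mutants. Of the 8 retina and lens markers that fell, all but pde6c passed the filter through the WT arrays alone and so had to differ. The photoreceptor gene crx stood at 8.14 and 9.43 in WT and at 0.79 and 0.45 in mutants. The part of nerve and eye tissue in the potassium channel results was not tested.

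Some other marker lists differed between the groups as well. As a background, 8.10% of all tested genes were called higher and 9.03% lower. The share called was 7.14% for cardiomyocyte markers, 11.1% for liver and yolk markers and 25.0% for epicardium and fibroblast markers, against 17.1% of all tested genes. Endothelial and endocardial markers had 10 of 18 higher and 0 lower, with sums of 43296 to 43626 in WT and 103457 to 119755 in mutants. Outflow tract and smooth muscle markers had 5 of 9 lower and 0 higher, with sums of 28986 to 30664 in WT and 13468 to 14854 in mutants. Cardiomyocyte sums overlapped, at 304954 to 335832 in WT and 247014 to 327314 in mutants. Skeletal muscle markers (1 of 15 higher, 4 lower), epicardium and fibroblast markers (2 of 12 higher, 1 lower), pigment cell markers (0 of 11 higher, 4 lower) and liver and yolk markers (1 of 9 higher, 0 lower) complete the lists. Of the 4 lower pigment cell markers, oca2 passed the filter through the WT arrays alone and so had to differ. The WT arrays stood apart in some of these sums. Liver and yolk markers summed to 34513 in WT 1 and 4926 in WT 2, against 12515 to 13967 in mutants, and pigment cell markers to 1649 and 334, against 1107 to 1316. Their part in the potassium channel results was not tested.

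**Figure D5:**
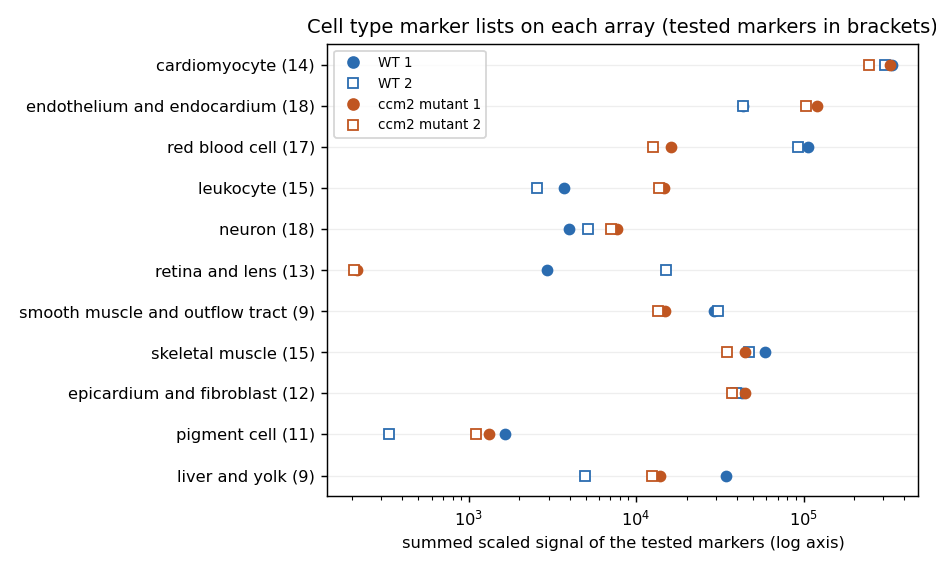
Summed scaled signal of the tested markers of 11 cell type lists (horizontal log axis), with 1 point for each of the 2 WT and 2 ccm2 mutant arrays. Retina and lens markers summed to 2938 and 15004 in WT and to 207 to 214 in mutants, and the cardiomyocyte sums of the groups overlapped.

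Among other channels and pumps of the action potential, 37 of 102 listed genes were tested, of which 2 were higher, 11 lower and 24 not called in mutants (35.1% called, beside 17.1% of all tested genes). These include 6 genes that passed the filter through 1 group alone and so had to differ, of which 1 was called higher (cacna2d4a) and 4 lower (atp1a3b, atp1b2b, slc8a2a and slc8a3). Among the 26 above the filter on all 4 arrays, 1 was higher, 6 lower and 19 not called, beside 15.2% called of all genes with that property. Of the genes that could be tested, the voltage-gated sodium channel genes had 3 of 5 lower and 0 higher, and the calcium channel genes 2 of 12 lower and 2 higher. The cardiac sodium channel gene scn5lab, named after its values were seen, gave 8.32 and 8.31 in WT and 6.65 and 5.94 in mutants (difference -2.02 ± 0.30, adjusted p = 0.0283). abcc9, also named after its values were seen, encodes the sulfonylurea receptor that joins the kcnj11 pore in ATP-sensitive channels. It was 5.34 and 5.18 in WT and 3.40 and 3.97 in mutants (difference -1.58 ± 0.27, adjusted p = 0.0358).

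Of 14 tested sodium-potassium pump genes, which maintain the potassium gradient, 3 were lower and 0 higher. Over all tested genes 9.03% were called lower and 8.10% higher. atp1a3b, a pump subunit of neurons that is also in the neuron list, was at least 18.5-fold lower, and atp1b2b was at least 13.7-fold lower. Both passed the filter through the WT arrays alone and so had to differ. atp1a1b fell by 2.80 (SE 0.18, adjusted p = 0.00873). Of 3 sodium-calcium exchanger genes 2 were lower and 0 higher, with slc8a2a at least 5.04-fold lower. Both lower exchanger genes, slc8a2a and slc8a3, passed the filter through the WT arrays alone and so had to differ. The calcium channel genes that rose were cacna1ha, a T-type subunit (difference 2.16 ± 0.31, adjusted p = 0.0271), and cacna2d4a, at least 1.37-fold higher. For cacna2d4a the mutant arrays stood at 2.84 and 4.04, of which only mutant 2 was well above background. cacna2d4a passed the filter through the mutant arrays alone and so had to differ.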

How the data were processed

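Total RNA (200 ng per sample, RNA integrity number above 8, per the labels' protocols) from 72 hpf hearts was labelled with Cy3 and read on 4 Agilent arrays. Each intensity the authors deposited is a processed signal of Agilent Feature Extraction 10.5.1.1, background-subtracted and detrended within each array, per the file headers. These values were not scaled between arrays. The deposited raw median intensity was used in 1 alternative (normexp with an offset of 50), and the header file gave quality statistics.

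Spots of 1 probe were averaged on the log2 scale, and values were scaled to each array's 75th percentile. The filter left 26831 of 43603 probes. For these, limma 3.58.1 (R 4.3.3) compared mutants with WT by lmFit and eBayes (two-sided, 2 residual degrees of freedom), with Benjamini-Hochberg adjustment, and a gene was read through its tested probe with the highest mean signal. The fit was also run on simulated data with known changes, whose variances were drawn from limma's own estimates on these arrays. This checked the computation and not the calls. Well above background were 54.0% to 55.9% of features by the headers' totals, and as many of the brightest features were taken as such. No feature was saturated.

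The platform annotation gave 1 symbol for 21061 features and none for 22742. For 66 of the 68 potassium channel genes the gene identifier gave the same symbol in RefSeq (GRCz12tu). No coordinates or sequences are given. Named genes were all called members, members of main cardiac currents, the 10 largest differences between non-overlapping groups and the brightest tested member of each family, and at most 4 called genes per direction of the action potential list, those of largest difference, to which scn5lab, abcc9, slc8a3 and the marker genes were added after their values were seen. Members and lists were chosen with earlier results of these data known. Figures were drawn with matplotlib 3.10.9. Precision is limited by having 2 arrays per group.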

Additional observations from a re-analysis of the deposited data

How the results depend on the processing

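The 4 higher and 8 lower potassium channel genes became 2 and 2 under a stricter filter (above the 60th percentile on all 4 arrays), which tested only 6 members, and 0 to 1 and 0 to 3 when 1 array was left out. With replicate number added as a block (replicate block) they were 2 and 5, since kcnab1a, kcnd3, kcng2, kcnk5a and kcnn1b were not called (adjusted p from 0.0533 to 0.0745). Of all genes, 996 were called higher and 1043 lower out of 7890 under the stricter filter. With the block these were 399 and 475 out of 11526, against 934 and 1041 in the main fit. Same-numbered samples share only a number, and their deviations from the group means correlated at 0.07. Under median, quantile or no scaling, normexp, no filter, a floor, an intensity trend, the mean of tested probes and an adjusted p of 0.1 the member counts were 3 to 5 higher and 7 to 10 lower. Over all genes these settings, other than the adjusted p of 0.1, called 511 to 1420 higher and 607 to 1615 lower. They covered 11526 genes, or 14435 without the filter. Of 17 named members, 16 kept their direction throughout. In these 16 the groups did not overlap, so leaving out 1 array could not reverse them. The block, the intensity trend and the changed filters left the estimates of named members as they were. kcnh2a, which was not well above background, turned from 0.12 to -0.12 with normexp and ran from -1.15 to 1.39 with 1 array left out. The cause was not tested. The all-gene median of -0.04 became 0.11 with median scaling and 0.17 without scaling, and no named member changed direction under them. Either choice moves the estimates of all genes by the same amount. Dim signals limit the folds of 6 of the 12 called members, for which at least 1 group was not well above background.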

Other observations

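Of the members too dim to test, 31 lay below the 40th percentile on all 4 arrays, between 0.0088 and 1.96 in log2 signal, and 10 lay above it on 1 array only. kcnb2a, a Shab-type subunit gene, stood at 6.65 on WT 1 and at 0.39 or less on the other arrays, and its second probe was at 2.26 or less on all 4. kcnq1.1 stood at 4.34 on mutant 2 and at 1.63 or less elsewhere, and its second probe at 1.15 or less on all 4. kcnmb2a stood at 3.36 on mutant 1 and kcnj1b at 2.96 on WT 2, each well above background there alone. The other 6 were kcnf1a, kcnj21, kcnk2a, kcnk2b, kcnk7 and kcnk12, none of them well above background on any array.

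At the edge of the filter, kcnj1a.2 and kcnh2a passed with their second highest array 0.03 and 0.04 above the 40th percentile, and kcnj21 and kcnk7 stayed outside by -0.19 and -0.46.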
